A study of Rattus norvegicus with 6 samples.

Results

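The genes described here were those whose signal was present in the rat ovary at birth and at postnatal day 4 but lower after newborn ovaries had spent 7 days in culture. They were chosen by a rule on the measured intensities: a probe set had to read at least 40 on each of the 4 arrays of uncultured ovaries, and its lowest value there had to be at least 1.5 times the higher of the 2 cultured arrays. Of 3243 probe sets with 1 gene symbol that reached 40 on all 4 arrays, 30 (0.925%) met it. Of these 30, 4 (Cox6c, Hbb, Hbb-b1 and Nr5a1) were left out by name, and 26 probe sets for 25 genes remained, out of 8799 probe sets on the array and 4736 genes with 1 symbol. Because the rule used the culture contrast, the lower values in culture are a description and carry no test. The rule did not compare day 4 with birth. It did set a minimum on all 4 uncultured arrays, so genes low at either age were left out and that comparison is not independent of the rule.

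Gene expression in intact ovaries of the rat was profiled with an Affymetrix expression microarray, whose probe sets report an intensity in arbitrary units. The 6 arrays fell into 3 groups of 2: ovaries removed at birth and cultured for 7 days (cultured), ovaries of 4-day-old pups (P4) and ovaries of newborn pups (P0). Cultured ovaries floated as whole organs on filters in DMEM-Ham's F-12 medium with bovine serum albumin, Albumax, transferrin, insulin, ascorbic acid, penicillin and streptomycin, while P4 and P0 ovaries were taken from the animal without culture. About 20 ovaries were pooled for every array, so animals within a pool cannot be told apart. The labels used here name no strain. The design text mentions progesterone added to cultures, but neither cultured sample is labelled with it, and whether either received it is unsettled.

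Around birth the rat ovary changes from clusters of germ cells into an organ of primordial follicles, each an oocyte wrapped in flat pregranulosa cells and embedded in stroma. Culture keeps this tissue alive without blood flow, pituitary hormones or nerves. The genes that met the rule do not form 1 pathway. They include matrix and cell surface proteins, receptors and signalling inhibitors, transcription factors, enzymes, and proteins of the cytoskeleton and the nuclear envelope.

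The arrays had been scaled to one level by the authors, and across probe sets replicate arrays correlated at 0.973 for cultured, 0.978 for P4 and 0.972 for P0 ovaries. Ovarian markers were present in all groups: 5 oocyte markers summed to 3140 and 3010 in cultured ovaries, against 3820 and 4130 at P4 and 1060 and 1200 at P0, and 8 granulosa markers summed to 1410 and 1510 in cultured ovaries, against 3190 and 2560 at P4 and 1070 and 1370 at P0. The granulosa sum mixes directions: 3 of the 8 read lower on both cultured arrays than on every uncultured one, and 2, the keratins Krt8 and Krt18, read higher. Krt8 read 260.5 and 274.4 in cultured ovaries, against 86.7 and 95.3 at P4 and 145.3 and 129.9 at P0. Krt18 read 337.0 and 388.8, against 36.9 and 79.4 at P4 and 82.1 and 63.5 at P0. Summed signals of markers of some other cell types differed with culture, though not every gene in a sum did. The summed signal of 6 erythroid markers was 240 and 205 in cultured ovaries, against 4480 and 3370 at P4 and 6040 and 6180 at P0, with Epor under the background level of 20 on every array. On the uncultured arrays most of this sum came from Hbb and Hbb-b1, which met the rule and were left out by name. Of the 6, 4 read lower on both cultured arrays than on every uncultured one, and none read higher. Beside the globins the gap was smaller: Alas2 read 73.7 and 68.9 in cultured ovaries, against 104.3 and 98.2 at P4 and 119.7 and 156.2 at P0. The summed signal of 5 macrophage markers was 958 and 556 in cultured ovaries, against 115 and 157 at P4 and 204 and 303 at P0. That of 4 adipocyte markers was 1160 and 1710 in cultured ovaries, against 256 and 174 at P4 and 116 and 88.3 at P0. That of 6 neuron and Schwann cell markers was 469 and 500 in cultured ovaries, against 177 and 207 at P4 and 221 and 234 at P0, with Dbh under 20 on every array. Only 2 of these 6 read higher on both cultured arrays than on every uncultured one, and none read lower. In a longer list of 13 tested neuron and Schwann cell genes, the median log2 difference of cultured ovaries was -0.30 against P0 and -0.01 against P4. The part of these cell types in the results below was not tested. In whole organs, fewer cells of a type and less RNA per cell cannot be told apart, and each cultured array had a chip ID batch of its own, so batch and culture cannot be told apart either. Cultured ovaries were 7 days past birth when sampled, and no uncultured group was of that age. Age and culture can therefore not be told apart.

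**Figure D1:**
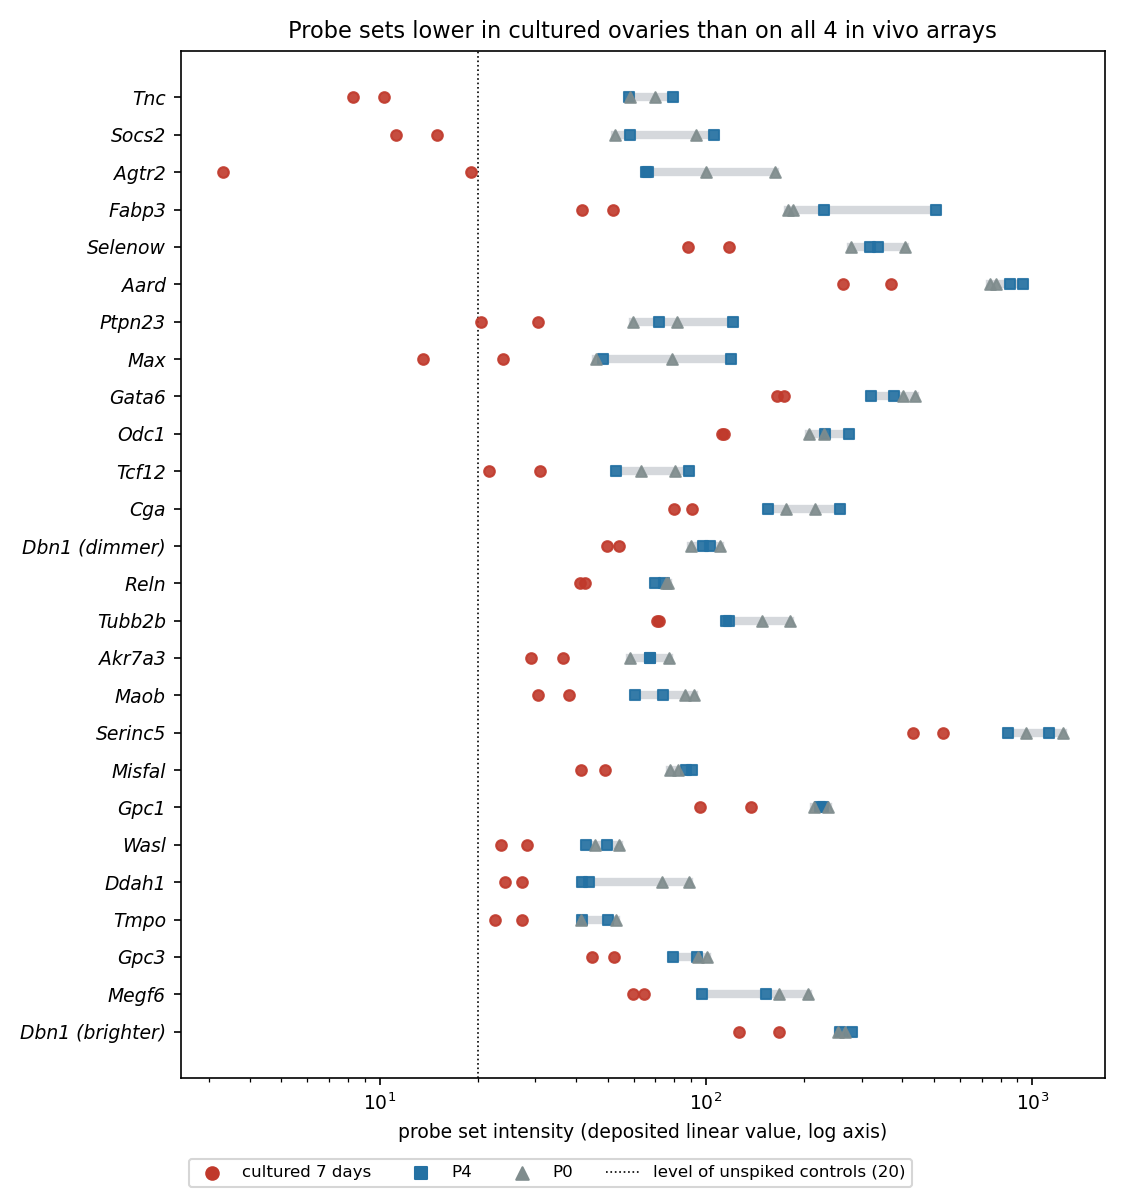
Intensity (log axis) of the 26 probe sets on each of the 6 arrays, ordered from top to bottom by the ratio of the lowest uncultured to the higher cultured array; red circles are cultured, blue squares P4 and grey triangles P0 ovaries, grey bars span the 4 uncultured arrays, and the dotted line marks 20, the highest signal of the unspiked control probe sets. Tnc, Socs2 and Agtr2 lie left of that line on both cultured arrays.

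Few of them differed widely between cultured and uncultured ovaries. The ratio of the lowest uncultured to the higher cultured array was at least 2 for 6 probe sets (Tnc, Socs2, Agtr2, Fabp3, Selenow and Aard) and under 2 for the other 20. The median log2 difference of the 26 was -1.19 for cultured against P0 and -0.97 for cultured against P4, beside -0.08 and -0.042 over all 6118 tested probe sets. Cultured replicate 1 read higher than replicate 2 for 20 of them and lower for 6, and the share over all probe sets was not counted. Just inside the ratio lay Gpc3, Megf6 and one probe set of Dbn1, each at 1.51, and just outside it Fmod (1.49), Fbln5 (1.48) and Pdlim3 (1.47). Of these, Fbln5 would have been left out by name at any ratio. Just inside the level lay Tmpo, Ddah1 and Wasl, with lowest values of 41.5, 41.6 and 43.0, and just outside it Spock2 (38.4), a second Gpc3 probe set (35.7) and Mmrn1 (35.5). The mirror pattern, with the lower cultured array at least 1.5 times the highest uncultured one, was met by 131 of the 3396 probe sets that read at least 40 on both cultured arrays (3.86%). With quantile normalization, 20 of the 26 still met the rule and Akr7a3, Ddah1, Megf6, Misfal, Wasl and Gpc3 did not.

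**Figure D2:**
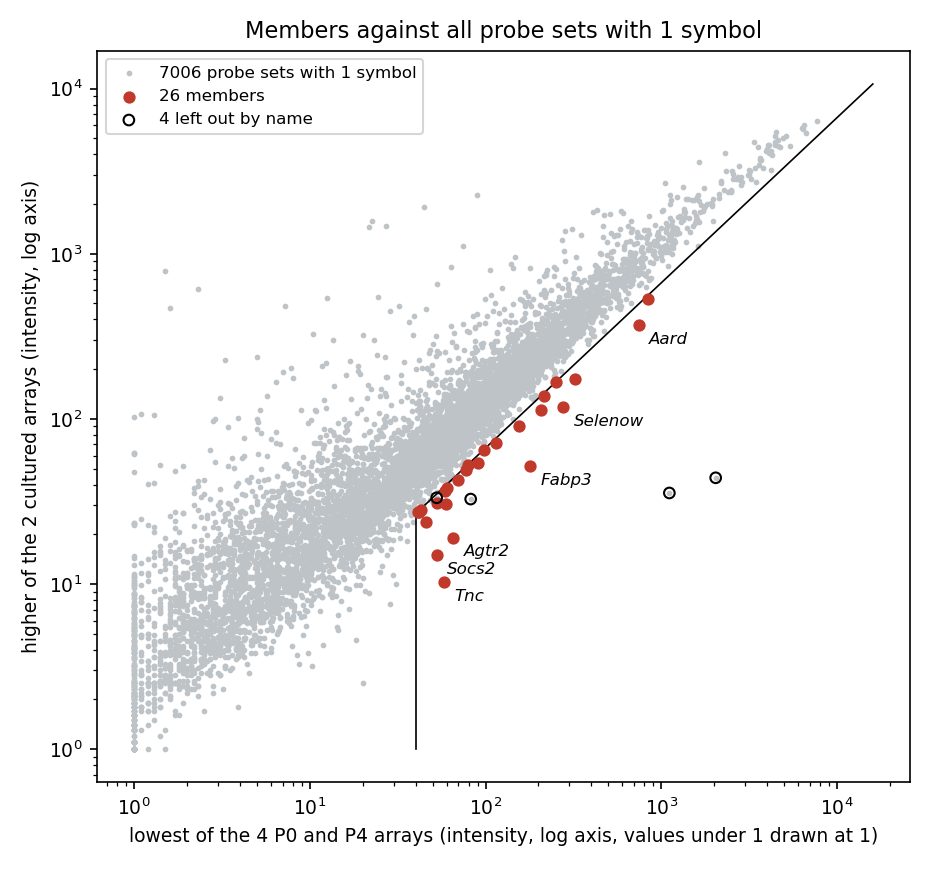
Higher cultured array (vertical, log axis) against the lowest P0 or P4 array (horizontal, log axis) for all 7006 non-control probe sets with 1 symbol, in intensity units. The 26 members (red) lie below the line of ratio 1.5 and right of 40, most of them close to it, and the open circles are the 4 probe sets left out by name, of which the beta-globins lie furthest out.

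A table of RefSeq promoters (GRCr8; 250 bases before to 50 after the start) held 22 of the 25 genes, all but Aard, Gpc1 and Socs2. Their median GC content was 64.8%, against 60% over 3871 genes on the array, and the median ratio of observed to expected CpG was 0.784 against 0.691. On either strand, the GC box GGGCGG occurred in 15 of 22 (68.2%, against 56.2% of all), the CCAAT box in 9 (40.9%, against 38.2%) and the TATA box TATAAA in 3 (13.6%, against 11.3%). The core of the cyclic AMP response element, TGACGT, occurred in 3 (13.6%, against 10%) and the E-box CACGTG in 2 (9.09%, against 8.5%). None held the GATA motif AGATAA, which 7.67% of all did. The AP-1 motif TGACTCA, in 4.08% of all, was also not found, nor was the SF-1 motif CAAGGTCA, in 0.775% of all. The 120 bases before the start are shown for 4 members whose behaviour is described in detail below. Capitals mark the CCAAT box, the TATA box and, read on the other strand as CCGCCC, the GC box. Agtr2 lies at chrX:116914200-116914319 (plus strand), Cga at chr5:54283220-54283339 (plus), Gata6 at chr18:2460789-2460908 (plus) and Gpc3 at chrX:137157599-137157718 (minus).
Agtr2: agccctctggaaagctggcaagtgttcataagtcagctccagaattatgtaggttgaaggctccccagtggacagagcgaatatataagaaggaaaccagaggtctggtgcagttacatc
Cga: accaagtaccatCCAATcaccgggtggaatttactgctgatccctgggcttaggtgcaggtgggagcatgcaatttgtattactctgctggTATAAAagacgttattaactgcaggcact
Gata6: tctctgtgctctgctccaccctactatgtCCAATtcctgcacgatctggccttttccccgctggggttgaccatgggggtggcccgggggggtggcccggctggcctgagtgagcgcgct
Gpc3: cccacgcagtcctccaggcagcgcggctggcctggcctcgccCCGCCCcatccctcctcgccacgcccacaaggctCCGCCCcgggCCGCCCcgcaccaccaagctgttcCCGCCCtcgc
The GC-rich Gpc3 stretch holds 4 GC boxes, the AT-richer Cga stretch holds a TATA box and a CCAAT box, Gata6 holds 1 CCAAT box, and the Agtr2 stretch holds none of the motifs searched.

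Among matrix and cell surface genes, Tnc showed the widest gap. Tnc encodes tenascin C, a matrix glycoprotein of developing and healing tissue. Its probe set read 10.3 and 8.3 in cultured ovaries, against 58.1 and 79.3 at P4 and 58.6 and 69.7 at P0. P4 and P0 arrays overlapped, and both cultured arrays were under 20, so the signal was at least 3.44-fold lower than at P4 and at least 3.21-fold lower than at P0. A second, dimmer Tnc probe set behaved alike, with 1.7 and 2.5 in cultured ovaries, against 20.1 and 38.2 at P4 and 22.7 and 44.3 at P0. The brightest one differed less and read 50.1 and 83.3 in cultured ovaries, against 96.2 and 128.1 at P4 and 109.3 and 127.0 at P0. All 3 Tnc probe sets were therefore lower on both cultured arrays, and the log2 difference of the brightest one, the only one above 20 in culture, was -0.79 against P0. Other matrix and receptor genes linked to tenascin C were not lower on both cultured arrays: fibronectin (Fn1) read 274.0 and 190.5 in cultured ovaries, against 166.7 and 204.8 at P4 and 262.6 and 266.4 at P0, and integrin beta 1 (Itgb1) read 1396.4 and 1501.4 in cultured ovaries, against 1198.3 and 1332.8 at P4 and 1142.4 and 1339.0 at P0.

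Gpc3 and Gpc1 encode glypicans, heparan sulfate proteoglycans anchored to the cell surface that bind growth factors. Gpc3 read 52.3 and 44.7 in cultured ovaries, against 93.8 and 79.1 at P4 and 94.7 and 100.5 at P0. Its brightest probe set, outside the rule, read 501.3 and 248.6 in cultured ovaries, against 976.2 and 898.6 at P4 and 697.4 and 670.4 at P0, and the dimmest read 22.8 and 10.5 in cultured ovaries, against 48.6 and 38.0 at P4 and 63.6 and 35.7 at P0. All 3 Gpc3 probe sets were thus lower on both cultured arrays, with the 2 cultured arrays of the brightest one well apart from each other. Gpc1 read 137.0 and 96.0 in cultured ovaries, against 224.1 and 228.3 at P4 and 214.9 and 236.4 at P0, and was among the steadiest of the members between P4 and P0. Another glypican, Gpc2, overlapped between groups, at 56.6 and 51.5 in cultured ovaries, against 46.9 and 81.2 at P4 and 79.1 and 86.0 at P0.

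Reln and Megf6 completed this group. Reln, the secreted glycoprotein reelin that guides migrating neurons, read 41.2 and 42.7 in cultured ovaries, against 69.9 and 74.5 at P4 and 76.4 and 75.5 at P0. Its 4 uncultured arrays spanned only a factor of 1.09, the narrowest range of the 26. The reelin receptor Vldlr ran the other way, at 37.1 and 57.0 in cultured ovaries, against 24.2 and 31.6 at P4 and 26.5 and 26.7 at P0. Megf6, a protein with many EGF-like repeats, read 64.4 and 59.7 in cultured ovaries, against 97.4 and 152.6 at P4 and 166.9 and 206.2 at P0.

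Among receptors and signalling genes, Agtr2 and Socs2 were under the background level of 20 in culture. Agtr2 is the type 2 angiotensin receptor, abundant in fetal tissues. It read 19.1 and 3.3 in cultured ovaries, against 65.7 and 66.3 at P4 and 99.9 and 162.4 at P0. The 3 groups did not overlap, and the signal in culture, under 20 on both arrays, was at least 3.3-fold lower than at P4 and at least 6.56-fold lower than at P0. The second Agtr2 probe set had the same order of groups, at 9.3 and 5.1 in cultured ovaries, against 16.8 and 22.0 at P4 and 45.4 and 71.6 at P0. The type 1 receptor Agtr1a overlapped between groups, at 39.6 and 58.5 in cultured ovaries, against 39.9 and 54.5 at P4 and 50.1 and 71.6 at P0, as did the converting enzyme Ace, at 93.0 and 77.1, against 70.7 and 122.2 at P4 and 89.5 and 91.1 at P0.

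Socs2, a suppressor of cytokine signalling that restrains growth hormone receptor signals, read 11.2 and 15 in cultured ovaries, against 58.5 and 105.5 at P4 and 52.7 and 93.1 at P0. It was at least 4.1-fold lower than at P4 and at least 3.65-fold lower than at P0, with P4 and P0 overlapping. The related Socs3, which inhibits signalling by interleukin 6 family cytokines, read 7.6 and 5.4 in cultured ovaries, against 30.4 and 28.7 at P4 and 33.8 and 45.7 at P0. Cish, of the same family, read 28.7 and 22.9 in cultured ovaries, against 30.6 and 52.0 at P4 and 42.9 and 61.6 at P0. Each of these 3 family members was lower on both cultured arrays than on any uncultured one. The receptor and transducer genes overlapped between groups: Ghr read 87.4 and 96.9 in cultured ovaries, against 66.2 and 79.3 at P4 and 88.1 and 89.4 at P0, and Stat5b read 40.6 and 63.7, against 38.4 and 60.7 at P4 and 45.5 and 54.8 at P0.

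Cga encodes the alpha subunit shared by the pituitary hormones FSH, LH and TSH. Its probe set read 79.6 and 90.8 in cultured ovaries, against 257.0 and 155.5 at P4 and 216.5 and 176.0 at P0. A second Cga probe set was dim, at 7.6 and 10.4 in cultured ovaries, against 46.2 and 26.1 at P4 and 11.9 and 24.4 at P0, and under 20 on 3 of 6 arrays. Of the beta subunits, Fshb and Tshb stayed under 20 on every array, and Lhb overlapped between groups, at 35.9 and 52.7 in cultured ovaries, against 54.2 and 35.9 at P4 and 61.9 and 45.3 at P0. The ovarian receptor Fshr read 39.1 and 53.8 in cultured ovaries, against 77.8 and 65.8 at P4 and 58.8 and 51.8 at P0. The LH receptor Lhcgr was lower on both cultured arrays, at 30.5 and 26.6 in cultured ovaries, against 47.8 and 59.3 at P4 and 63.5 and 34 at P0. Ptpn23, a phosphatase-like protein of endosomal sorting, read 30.5 and 20.5 in cultured ovaries, against 72.0 and 121.3 at P4 and 59.9 and 81.6 at P0. Its other probe set did not follow, at 20.9 and 27.1 in cultured ovaries, against 26.2 and 34.3 at P4 and 32 and 28.9 at P0.

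Of the transcription factors, Gata6 was the brightest. Gata6 is a zinc finger factor of ovarian somatic cells that acts beside Gata4. It read 173.9 and 165.2 in cultured ovaries, against 378.1 and 321.4 at P4 and 436.3 and 402.9 at P0. Both further Gata6 probe sets were dim, between 6.9 and 26 on all arrays, and 1 of them was lower on both cultured arrays. Gata4 was also lower on both cultured arrays, at 247.5 and 143.6, against 350.6 and 484.3 at P4 and 295.4 and 462.9 at P0. Wt1, a factor of the early gonad, was lower too, at 121.0 and 117.9 in cultured ovaries, against 132.5 and 277.7 at P4 and 180.6 and 496.8 at P0, while the nuclear receptor Nr0b1 overlapped between groups, at 28.1 and 51.4, against 25.7 and 25.9 at P4 and 9.2 and 32 at P0. Nr5a1, the steroidogenic factor SF-1 that met the rule but was left out by name, read 33.3 and 19.6 in cultured ovaries, against 59.9 and 67.6 at P4 and 52.7 and 77.1 at P0.

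Max, the obligate partner of Myc proteins, read 13.6 and 23.9 in cultured ovaries, against 119.0 and 48.3 at P4 and 78.6 and 46.0 at P0. One of its cultured arrays was under 20, and its uncultured arrays spanned a factor of 2.59. The other Max probe set was at background, with no array above 1.6. Tcf12, an E protein that pairs with tissue-specific helix-loop-helix factors, read 31.0 and 21.6 in cultured ovaries, against 53.2 and 88.9 at P4 and 63.1 and 80.6 at P0. Its second probe set overlapped between cultured and P4, at 66.3 and 78.1 in cultured ovaries, against 74.3 and 104.2 at P4 and 104.7 and 112.4 at P0. The E protein Tcf3 was lower on both cultured arrays, at 97.2 and 74.7, against 145.1 and 173.6 at P4 and 150.7 and 120.8 at P0, whereas Tcf4 overlapped, at 100.4 and 111.2, against 111.7 and 87.6 at P4 and 141.8 and 120.2 at P0.

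Enzymes and lipid carriers made up the next group. Fabp3, the heart-type fatty acid binding protein, read 52.0 and 41.7 in cultured ovaries, against 507.6 and 230.5 at P4 and 178.4 and 184.9 at P0. It had the widest spread over the uncultured arrays, a factor of 2.85, set by P4 replicate 1. Its relative Fabp4, of adipocytes and macrophages, ran in the opposite direction, at 512.3 and 783.3 in cultured ovaries, against 111.4 and 30.1 at P4 and 9.3 and 1.5 at P0, and Fabp5 read 759.2 and 820.6, against 494.5 and 434.7 at P4 and 741.5 and 726.1 at P0. Fabp6 was lower on both cultured arrays, at 761.9 and 843.7, against 1098.4 and 1193.4 at P4 and 1414.7 and 1423.8 at P0. Fabp1 stayed below 20 on every array, as did Fabp7.

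Selenow, a small selenoprotein of the thioredoxin-like fold, read 117.6 and 87.9 in cultured ovaries, against 336.0 and 317.3 at P4 and 277.7 and 408.2 at P0. The cytosolic glutathione peroxidase Gpx1, another selenoprotein, was also lower on both cultured arrays, at 630.7 and 493.6, against 1152.2 and 1258.8 at P4 and 816.4 and 849.4 at P0. Others were not: Gpx4 read 574.0 and 450.1 in cultured ovaries, against 390.9 and 348.4 at P4 and 386.5 and 558.6 at P0, and Txnrd1 read 446.1 and 409.4, against 405.5 and 395.7 at P4 and 357.2 and 378.2 at P0. The deiodinase Dio1 was lower, at 15.7 and 18.8 in cultured ovaries, both under 20, against 38.3 and 29.1 at P4 and 23.7 and 31.0 at P0.

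Odc1 encodes ornithine decarboxylase, the first enzyme of polyamine synthesis. It read 112.2 and 114.0 in cultured ovaries, against 232.2 and 274.1 at P4 and 207.3 and 229.9 at P0. Its second, brighter probe set was also lower, at 263.1 and 301.4 in cultured ovaries, against 442.9 and 387.2 at P4 and 428.8 and 446.2 at P0. The antizyme Oaz1, which targets ornithine decarboxylase for degradation, overlapped between groups, at 1899.7 and 1763.4 in cultured ovaries, against 1920.5 and 1900.9 at P4 and 1852.1 and 1751.9 at P0. A further gene of polyamine metabolism, Amd1, overlapped between groups, at 98.4 and 151.9, against 134.8 and 125.3 at P4 and 83.8 and 86.5 at P0.

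Maob, a mitochondrial enzyme that oxidizes amines, read 38.1 and 30.5 in cultured ovaries, against 60.6 and 73.9 at P4 and 91.8 and 86.4 at P0, while Maoa spread from 109.0 to 298.5 in cultured ovaries and from 136.2 to 329.0 at P0. Akr7a3, an aldehyde reductase, read 36.6 and 29.2 in cultured ovaries, against 67.2 and 67.3 at P4 and 58.5 and 76.9 at P0. Its paralogue Akr7a2 overlapped between cultured and P4 arrays, at 419.4 and 476.4 in cultured ovaries, against 437.0 and 404.2 at P4 and 340.4 and 370.9 at P0. Serinc5, a membrane protein named for incorporating serine into lipids, was the brightest member, at 533.8 and 431.8 in cultured ovaries, against 1124.9 and 842.3 at P4 and 1240.5 and 958.5 at P0. Ddah1, which degrades an inhibitor of nitric oxide synthase, read 27.3 and 24.2 in cultured ovaries, against 43.7 and 41.6 at P4 and 88.6 and 73.3 at P0. For Ddah1 the brighter probe set disagreed: it read 163.6 and 242.9 in cultured ovaries, against 208.2 and 179.2 at P4 and 380.3 and 285.1 at P0, so that cultured and P4 arrays overlapped there and both lay below P0.

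Cytoskeletal and nuclear envelope genes had ratios of 1.66 or less. Dbn1, the actin-binding protein drebrin, was the only gene with 2 probe sets that met the rule. They read 54.3 and 49.7 in cultured ovaries, against 97.7 and 103.0 at P4 and 110.6 and 90.1 at P0, and 167.5 and 126.3 in cultured ovaries, against 256.9 and 280.1 at P4 and 267.2 and 253.2 at P0. Tubb2b, a beta-tubulin of developing neurons, read 71.8 and 70.7 in cultured ovaries, against 115.4 and 117.6 at P4 and 181.4 and 148.1 at P0. Its second probe set was at background. Probe sequences were not available, so whether its member probe set also matches related tubulins was not checked, and its reading is uncertain for that reason. Nor was it checked for any other gene named here whether the probe set matches that gene alone. Wasl, the actin nucleation factor N-WASP, read 28.2 and 23.5 in cultured ovaries, against 49.6 and 43.0 at P4 and 45.6 and 54.0 at P0, and its second probe set stayed under 20. Actin itself (Actb) read 4544.8 and 3909.3 in cultured ovaries, against 5169.2 and 6171.1 at P4 and 5980.7 and 4468.2 at P0, with cultured and P0 arrays overlapping.

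Tmpo encodes lamina-associated polypeptides of the inner nuclear membrane, and its member probe set read 22.6 and 27.4 in cultured ovaries, against 50.2 and 41.7 at P4 and 52.9 and 41.5 at P0. The brightest of its 4 other probe sets read 328.0 and 264.9 in cultured ovaries, against 451.2 and 321.0 at P4 and 302.5 and 310.0 at P0, and the next 99.6 and 93.1, against 166.3 and 101.3 at P4 and 96.0 and 96.9 at P0. Both overlapped between cultured and P0. Of the other 2, which were dim, 1 was lower on both cultured arrays, at 15.2 and 12.8, against 23.8 and 27 at P4 and 16.9 and 29.9 at P0, so the lower Tmpo signal was seen on dim probe sets only. Aard, a gene of no role named here, read 369.0 and 262.9 in cultured ovaries, against 938.0 and 854.3 at P4 and 772.7 and 744.5 at P0. Misfal, likewise without a named role, read 49.2 and 41.5 in cultured ovaries, against 86.8 and 90.8 at P4 and 77.4 and 82.1 at P0.

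Related genes are shown above as examples from 80 genes set beside the members by family or pathway. Of these 80, 13 read lower on both cultured arrays than on every uncultured array, 8 read higher and 59 overlapped, and no test was made. Over all 7006 probe sets with 1 symbol, 11.4% read lower in this sense and 10.5% higher. The lower ones not shown above were Gata1, the erythroid GATA factor, at 12.0 and 13.0 in cultured ovaries, against 27.3 and 19.9 at P4 and 30.2 and 21.7 at P0, the Myc relative Mycn, at 29.3 and 7.3 in cultured ovaries, against 42.9 and 36.5 at P4 and 59.8 and 38.8 at P0, and the tubulin Tuba1b, at 2846.8 and 2635.1 in cultured ovaries, against 3424.7 and 3675.8 at P4 and 3248.6 and 3409.0 at P0. For Gata1, both cultured arrays and the lower P4 array were under 20, so its gap lies partly within background. The higher ones not shown were Arg1, Id3 and Ptprz1, of which Ptprz1 stayed under 20 on every array.

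Over the 13 member genes with a further probe set, 19 such probe sets were available, and 9 of them read lower on both cultured arrays than on all 4 uncultured ones, a pattern that 11.4% of all 7006 probe sets with 1 symbol had. Every further probe set of Tnc, Agtr2, Gpc3, Odc1 and Cga was among the 9, with 1 of Gata6 and 1 of Tmpo. For those of Agtr2, Cga, Gata6 and Tmpo, both cultured arrays and the lowest uncultured array were under 20. The lowest uncultured values were 16.8, 11.9, 13.0 and 16.9, so these gaps lie partly within background. Those of Ddah1, Tcf12 and Ptpn23 were not, and 3 of the 19 had means under 20 in every group. The remaining 12 genes had a single probe set. As these readings come from the same arrays that the rule used, they are a description and no separate replication.

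**Figure D3:**
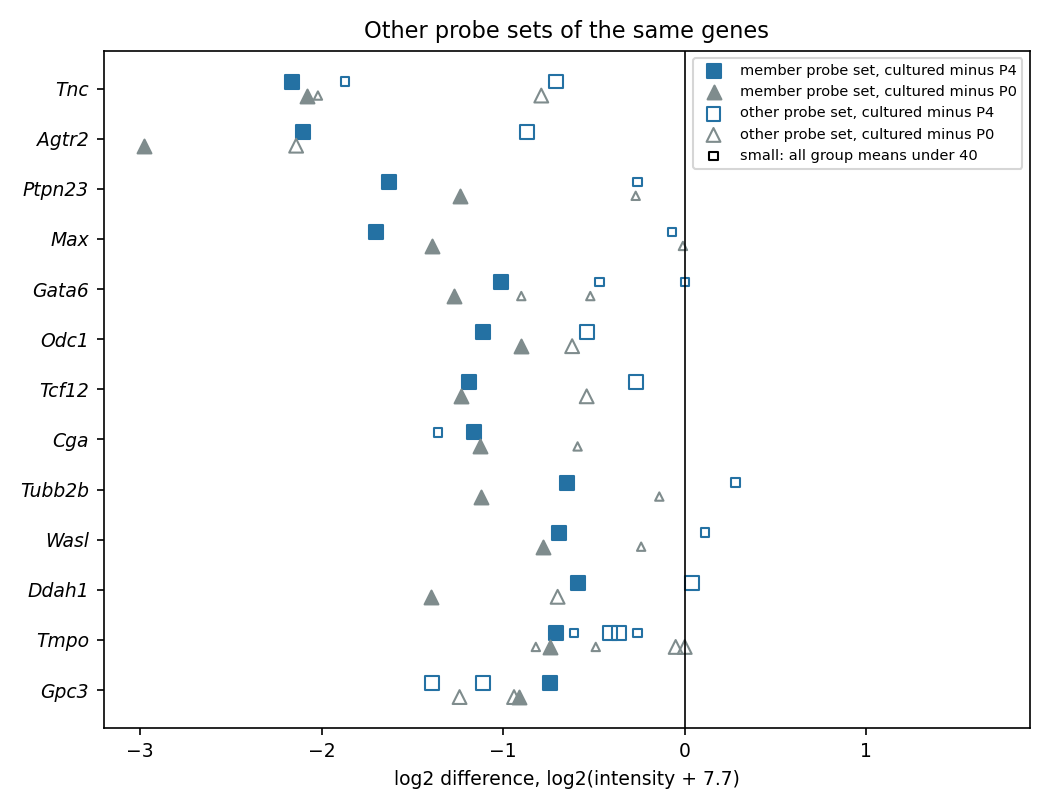
Log2 difference (horizontal) of cultured minus P4 (blue squares) and cultured minus P0 (grey triangles) for the 13 genes with more than 1 probe set; filled symbols are the probe sets that met the rule, open symbols the others, and small open symbols those with every group mean under 40. The open symbols lie left of 0 with the filled ones for Tnc, Agtr2, Odc1 and Gpc3, and closer to 0 for Ptpn23, Max and Wasl.

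Whether these genes also differed between P4 and P0 was asked with one limma model of all 6 arrays, on log2 of the intensity plus 7.7, with Benjamini-Hochberg adjustment over 6118 probe sets. No member passed at an adjusted p under 0.05, where 1.08% of all tested probe sets did (0.85% higher and 0.229% lower at P4). An unadjusted limma p under 0.05 was found for 2 of 26 (Fabp3 and Ddah1). The share of all tested probe sets at that unadjusted threshold was not counted, so the 2 are not read as a result. All 26 were bright enough to be tested, which the rule made certain. Their differences ran from -0.88 to 0.89, with 11 above 0, 13 below, the others at 0.00, and a median of -0.01, beside a median of -0.053 for all tested probe sets. P4 and P0 arrays did not overlap for 12 of 26, 4 with P4 higher and 8 with P4 lower, where 44.2% of all tested probe sets did not overlap (18.6% with P4 higher and 25.7% with P4 lower). A missed threshold with 2 arrays a group does not show that P4 and P0 were alike. The rule also left out genes low at either age, which limits how far P4 and P0 could differ among its members. For 15 of the 26 the uncultured arrays spanned less than a factor of 1.5, and for 7 a factor of 2 or more, with no count of such spans over all probe sets.

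**Figure D4:**
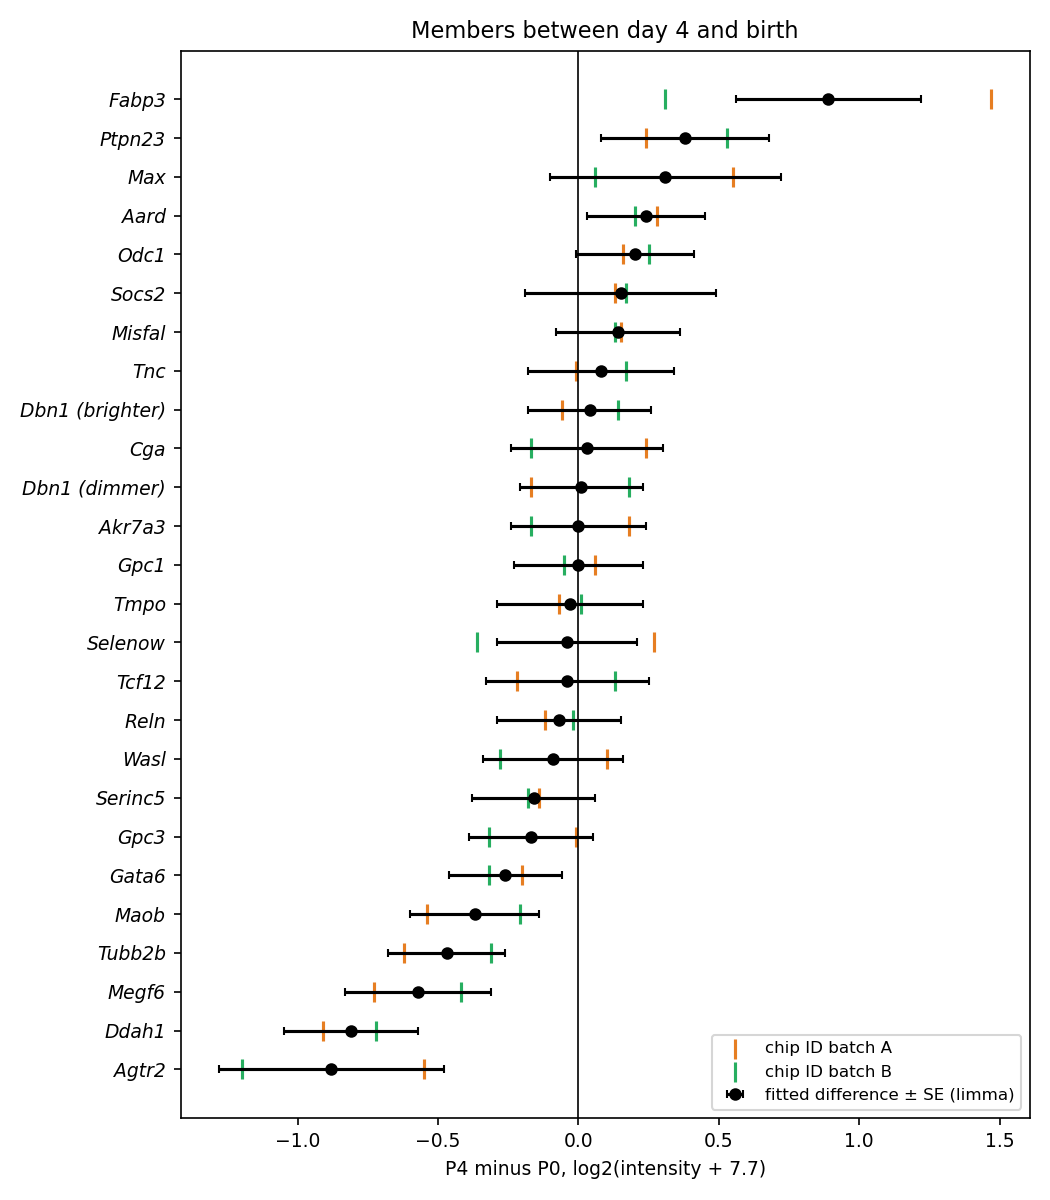
P4 minus P0 difference in log2 intensity (horizontal) for the 26 probe sets, as the fitted value with its standard error (black, 2 arrays a group) and within chip ID batch A (orange) and B (green). Fabp3 lies at the upper end (0.89) and Agtr2 and Ddah1 at the lower (-0.88 and -0.81), and most others sit within their standard error of 0 or near it.

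The largest P4 minus P0 differences belonged to 4 genes. Agtr2 averaged 66.0 ± 0.424 at P4 and 131.0 ± 44.2 at P0 (SD, n = 2 each), a log2 difference of -0.88 (SE 0.40, limma adjusted p = 0.404) that was -0.55 in chip ID batch A and -1.20 in batch B. A further fit took the 4 P4 and P0 arrays with the chip ID batch as a block, which pairs the arrays of the same number. In this blocked fit the Agtr2 member probe set passed (limma adjusted p = 0.0488), the only member probe set to do so. The same 4 arrays without the block gave an adjusted p of 0.238 by limma. In the blocked fit 5.13% of all tested probe sets passed, 3.17% higher and 1.96% lower at P4. The second Agtr2 probe set had a log2 difference of -1.27 (limma adjusted p = 0.119), also with P4 below P0, and passed in the blocked fit (limma adjusted p = 0.0169). Ddah1 had a log2 difference of -0.81 (SE 0.24, limma adjusted p = 0.162) and its brighter probe set one of -0.75 (limma adjusted p = 0.224). In the blocked fit the brighter one passed (limma adjusted p = 0.0394) and the member one did not (limma adjusted p = 0.0542). Both Ddah1 probe sets had every P4 array below every P0 array.

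Megf6 averaged 125.0 ± 39.0 at P4 and 187.0 ± 27.8 at P0 (SD, n = 2 each), a log2 difference of -0.57 (SE 0.26, limma adjusted p = 0.39). In the other direction, Fabp3 averaged 369.0 ± 196 at P4 and 182.0 ± 4.6 at P0 (SD, n = 2 each), a log2 difference of 0.89 (SE 0.33, limma adjusted p = 0.273). Its within-batch differences were 1.47 in batch A and 0.31 in batch B, and without P4 replicate 1 the difference was 0.33 (limma adjusted p = 0.847). Within the batches, 16 of the 26 members had the same sign in A and B, and the share over all tested probe sets was not counted. At the flat end stood Gpc1 (0.00, SE 0.23), Akr7a3 (0.00, SE 0.24) and one Dbn1 probe set (0.01, SE 0.22).

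Of 23 lists of ovarian cell types and pathways, 4 held a member gene. Counts use the brightest probe set of each gene, and the culture counts leave out the member genes, which were chosen on that contrast. Among the other 16 tested pregranulosa and granulosa genes, cultured against P0 gave 2 higher, 2 lower and 12 not passing (median -0.28), and cultured against P4 gave 2 higher, 3 lower and 11 not passing (median -0.63). Over all tested probe sets, 5.43% passed against P0 (3.48% higher and 1.95% lower in cultured ovaries) and 2.78% against P4 (2.16% higher and 0.621% lower), with medians of -0.08 and -0.042. The keratins Krt8 and Krt18 were higher in both comparisons. Lower than P0 were Fst, the activin-binding follistatin (log2 difference -1.64, limma adjusted p = 0.00407), and Igfbp2. Lower than P4 were the hormone genes Inha and Amh and the aromatase gene Cyp19a1. Between P4 and P0, with Gata6 included, 3 of 17 were higher (Inha, Cyp19a1 and Serpine2), none lower and 14 did not pass (median 0.05). With the chip ID batch as a block, 4 were higher (Amh was added), 3 lower (Fst, Krt19 and Igfbp2) and 10 did not pass. Gata6 passed in neither fit, at 350.0 ± 40.1 in P4 and 420.0 ± 23.6 in P0 ovaries (SD, n = 2 each; log2 difference -0.26, limma adjusted p = 0.651). These names, and those of the next lists, were picked from the counts after their values were seen.

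In the mesenchyme and stroma list, which holds Gpc3, 21 other genes were tested. Cultured against P0 gave 3 lower (Postn, Eln and Ptn), none higher and 18 not passing (median -0.20), and cultured against P4 gave 1 higher (Thy1), 1 lower (Fbln5) and 19 not passing (median -0.18). The elastic fibre gene Fbln5 read 63.6 and 51.6 in cultured ovaries, against 167.0 and 172.2 at P4 and 94.2 and 125.2 at P0. It fell just short of the ratio in the rule, which also leaves it out by name. The immediate early and stress list, with Socs2, gave 1 higher (Hsph1), 1 lower (Socs3) and 22 not passing of 24 other genes for cultured against P0 (median 0.08). Against P4 it gave 2 higher (Ier3 and Hmox1), 1 lower (Socs3) and 21 not passing (median 0.12). The cytoskeleton list, with Dbn1 and Tubb2b, gave none of 15 other genes against P0 by limma (4 at an unadjusted p under 0.05) and 1 lower against P4 (Basp1), with medians of -0.20 in both. Between P4 and P0 no gene of these 3 lists passed in the 6-array limma model, where the counts at an unadjusted p under 0.05 were 6 of 22, 1 of 25 and 1 of 17. Counts at an unadjusted p in this paragraph have no share over all tested probe sets beside them and are not read as a result. With the chip ID batch as a block, Postn, Lox, Eln and Ptn were lower and Hsph1 higher at P4. The lowest adjusted p-values without the block were those of Postn (log2 difference -1.18, limma adjusted p = 0.0525) and Hsph1 (0.97, limma adjusted p = 0.0681).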

How the data were processed

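Total RNA of 6 ovary pools was made into biotinylated target and run on the arrays, per the labels' protocols. The authors deposited linear probe set intensities already scaled per array (mean of 125.2 after trimming 2% at each end); the labels used here name no summary algorithm, and no detection calls were used. Values were kept as deposited. A pseudocount of 7.7 (their 20th percentile) was added before log2. After removal of 59 control probe sets and of 2622 dim ones (mean log2 intensity below the 30th percentile), 6118 were tested with limma 3.58.1 in R 4.3.3 (3 group means, all 6 arrays, variance trend, two-sided, Benjamini-Hochberg), after tests on simulated data. An exact permutation test of 2 against 2 arrays cannot go below 0.33. The background level of 20, chosen after seeing the data, is the highest signal of 23 unspiked control probe sets; a fold of at least N sets cultured arrays under it to 20. Symbols came from the array annotation: 7018 probe sets had 1, 308 several and 1473 none, and 6994 were matched to a RefSeq gene table (GRCr8), which also gave chromosomes. The labels' chip IDs put P4 and P0 arrays of one replicate number in a shared batch, and their deviations from the group means correlated at 0.33; the fit with this batch as a block uses only those 4 arrays, since each cultured array has its own batch. Every member is named, with Actb; the rule set for other genes, up to 3 per list by the smallest p for P4 against P0, was widened after their values were seen to the genes behind small counts; lists were described on the brightest probe set per gene. Members and lists were chosen with earlier results of these data known, and related genes set beside a member were chosen after the members were known. The labels call the pools of a group independent; p-values measure the spread between these pools, and the number of arrays limits the precision.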

Additional observations from a re-analysis of the deposited data

How the results depend on the processing

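Looser or stricter thresholds changed how many probe sets met the rule: 44 and 12 at a level minimum of 20 and 80, and 67 and 6 at a ratio of 1.3 and 2, against 26. Leaving out 1 array, which by construction loosens the rule, gave 31 to 107, with 52 without P4 replicate 1, 107 without cultured replicate 1 and 84 without cultured replicate 2. The median of the members was -0.88 (cultured against P0) and -0.81 (cultured against P4) at a pseudocount of 32, and ran from -1.26 to -1.03 and from -1.06 to -0.85 without 1 array. No member probe set passed between P4 and P0 under the alternatives run, except that of Agtr2 (1 member) with the replicate block on the 4 P4 and P0 arrays. Over all probe sets, 66 passed between P4 and P0, against 23 without the filter, 29 without the trend, 23 with the 4 P4 and P0 arrays alone (chosen after seeing the data), 314 with these 4 arrays and the replicate block, and 15 to 50 without 1 array (16 without P0 replicate 2, 15 without P4 replicate 1, 25 and 23 without cultured replicates 1 and 2). Against P0, 332 passed in culture, and 84 to 356 without 1 array (182 and 145 without P0 replicates 1 and 2, 100 and 84 without cultured replicates 1 and 2). Against P4, 170 passed, and 78 to 195 without 1 array (106 without P4 replicate 1, 78 and 87 without cultured replicates 1 and 2). A block on the replicate number over all 6 arrays gave 255 and 141. Of 361 recomputed P4 minus P0 differences of members, 340 stayed on their side of the threshold without a change of sign. A difference of 0.00 was taken to have no sign, so it could not count as changed. Akr7a3 and Gpc1, both at 0.00, ran from -0.17 to 0.18 and from -0.06 to 0.07 without 1 array. Tmpo was 0.04 with quantile normalization, against -0.03. Without 1 array the sign changed for 11 probe sets with differences of at most 0.31. Their ranges were -0.24 to 0.54 for Socs2, -0.31 to 0.38 for Cga, -0.28 to 0.90 for Max, -0.20 to 0.02 for Wasl, -0.18 to 0.12 for Tmpo, -0.37 to 0.04 for Serinc5, -0.38 to 0.29 for Tcf12, -0.12 to 0.28 for Tnc, -0.32 to 0.23 for Selenow, and -0.13 to 0.14 and -0.02 to 0.10 for the Dbn1 probe sets. The causes were not tested.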

Other observations

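The 25 member genes lay on 11 of the rat chromosomes. Chromosome 5 held 5 of them (20.0%: Akr7a3, Cga, Fabp3, Megf6 and Tnc), where 5.94% of the array's genes lie, and the X chromosome held 3 (12.0%: Agtr2, Gpc3 and Maob), where 2.95% lie. With so few genes these shares are given as counts, with no test. Arg2, an arginase that supplies ornithine to Odc1, did not follow Odc1: it read 153.4 and 159.9 in cultured ovaries, against 197.7 and 180.5 at P4 and 58.8 and 51.8 at P0.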
